A study of Homo sapiens with 4 samples.

Results

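The Wnt and β-catenin pathway outputs described here are 10 human genes: CTNNB1, the DNA-binding partners LEF1, TCF7 and TCF7L2, the feedback genes AXIN2 and DKK1, the receptor gene TNFRSF19, and MYC, CCND1 and CD44. They were chosen by name, with earlier results of these data known, and all probe sets annotated to 1 of them alone were used. The annotation named 22 probe sets for 7 of the 10 genes, and 13 probe sets of 5 genes (CTNNB1, LEF1, TCF7L2, CCND1 and MYC) passed the filter of signal 20, reached on 1 array or more, out of 9193 genes measured in all. No probe set was annotated to TCF7, AXIN2 or TNFRSF19 alone in the table used here, and probe sets naming several genes were left out.

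β-catenin, the product of CTNNB1, is both a partner of cadherins at cell junctions and a transcriptional coactivator. In cells without a Wnt signal it is phosphorylated by the APC, Axin, CK1 and GSK3 destruction complex, recognized by β-TrCP, the F-box protein that selects substrates for an SCF ubiquitin ligase, and degraded by the proteasome. Stabilized β-catenin enters the nucleus and binds TCF and LEF proteins at their target genes, several of which, such as AXIN2, DKK1 and LEF1, encode pathway components themselves.

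RNA was measured on 4 Affymetrix U133 arrays, 1 per condition, in LAPC4, an established line of human prostate cancer cells that is sensitive to androgen. Control cells carried a lentiviral GFP vector and knockdown cells a lentiviral shRNA directed at both β-TrCP1 (BTRC) and β-TrCP2 (FBXW11). Each was kept for 72 hours either in 10% fetal calf serum (FCS) to which the synthetic androgen methyltrienolone had been added at 100 pM, or in 10% charcoal stripped serum (CSS), the androgen ablation arm. The question for these genes was whether transcripts of known β-catenin and TCF outputs were higher with β-TrCP shRNA. The vector of the study is doxycycline inducible, and its text describes the control as uninduced cells while the sample labels describe GFP vector cells, so the shRNA cannot be told apart from doxycycline or the vector. β-TrCP acts on the β-catenin protein, which arrays do not measure.

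Values are normalized log2 signals, with a floor of 4.32 (a signal of 20), and a value at the floor gives only a bound. A difference of 2 single arrays has no test, and how many arrays there are is what limits its precision. Beside it stands the local spread, a robust SD of the differences of the 1000 probe sets nearest in signal on the same arrays. The array with the shRNA in CSS stood apart. Before normalization its values had an interquartile range of 2.07 against 2.68 to 2.74 on the other arrays, and its Pearson correlation with them over 22215 probe sets was 0.946 to 0.947, against 0.985 to 0.992 among the others. Over all probe sets the robust SD of the shRNA difference was 0.24 in FCS and 0.53 in CSS. Of 10 prostate luminal markers 7 passed the filter. KRT18 (11.21 to 11.60), KRT8 (9.17 to 9.91) and HOXB13 (8.27 to 8.90) were bright on all arrays, ACP3 was near the floor and FOLH1 was under the filter. With the shRNA the secretory marker KLK2 differed by -1.23 in FCS and -2.41 in CSS and KLK3 by -0.98 and -1.37 on the log2 scale, and limma called both lower (Benjamini-Hochberg adjusted p = 7.52e-15 and 6.26e-14), while TMPRSS2 differed by -0.55 and -0.21. Without the trend of variance on mean signal, limma called 0 probe sets for the shRNA. The part of these shRNA differences in the member differences was not tested. Between sera, CSS against FCS, the limma main effects of KLK3 (0.54) and KLK2 (0.11) were positive. In control cells the median over the 7 luminal markers was 0.31, from 4 higher and 3 lower in CSS. How far CSS lowered androgen signalling was not tested. T cell markers are relevant because LEF1 is also a lymphocyte gene, and 3 of 6 passed the filter. Of these, CD3E was at the floor on all 4 arrays. CD3D was at the floor on every array except shRNA-CSS, where its log2 signal was 4.44. CD7 was above the floor but dim on all arrays, at 4.60 to 4.80. The summed signal of the 3 markers was 64.2 to 69.5, in which each value at the floor counts as 20.

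The shRNA target FBXW11 had a log2 signal of 8.02 in control cells in FCS, 8.19 in control cells in CSS, 5.02 in shRNA cells in FCS and 4.68 in shRNA cells in CSS. It was lower with the shRNA by 7.98-fold in FCS and 11.4-fold in CSS in this probe set, the brighter one. The other probe set differed by -1.34 and -0.95 on the log2 scale. BTRC was near the floor on the control arrays (4.50 and 4.64) and at the floor on both shRNA arrays, at least 1.13-fold lower in FCS and 1.25-fold lower in CSS. In bulk RNA such as this, fewer cells with a transcript and less of it per cell cannot be told apart.

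In FCS, 12 of the 13 member probe sets were higher with the shRNA and 1 was lower, with a median difference of 0.45 on the log2 scale against -0.00 over all 13565 probe sets. Of all probe sets 6698 were higher and 6837 lower. The 13 member probe sets come from 5 genes, with 6 from TCF7L2 and 3 from LEF1, and are not independent of each other. Only 2 of them, both of LEF1, reached 2-fold upwards and 0 reached it downwards, where 0.693% of all probe sets were 2-fold higher and 0.391% were 2-fold lower. In CSS, 7333 of all probe sets were higher and 7404 lower. Over the members the median there was 0.08, from 8 higher and 5 lower probe sets, but -0.07 from 4 higher and 9 lower ones with the values as deposited. Only 1, again of LEF1, was at least 2-fold higher in CSS and 0 were 2-fold lower, where 7.11% of all probe sets were 2-fold higher and 6.81% were 2-fold lower. The deposited values moved the median of all probe sets in the CSS pair to -0.17 and the split of 2-fold calls from 1050 higher and 1006 lower to 594 higher and 1760 lower, while a common median moved the median to 0.11 and the split to 1183 higher and 795 lower. Directions of small differences in CSS are therefore given with the scaling that flips them.

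**Figure D1:**
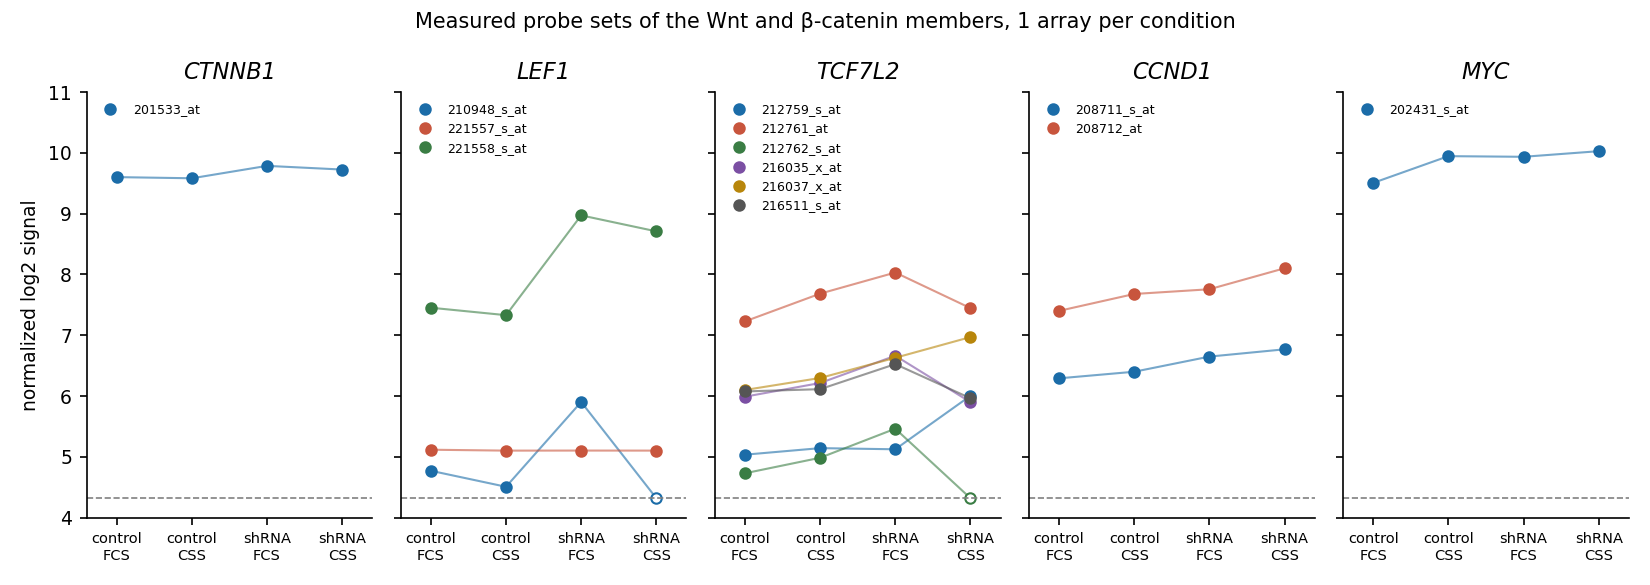
Normalized log2 signal (vertical axis) of each measured probe set of CTNNB1, LEF1, TCF7L2, CCND1 and MYC on the 4 arrays (horizontal axis, 1 array per condition, so there are no error bars), with the floor of 4.32 dashed and values at the floor as open circles. LEF1 221558_s_at stood at 8.97 and 8.71 on the shRNA arrays against 7.45 and 7.33 on the control arrays, while LEF1 221557_s_at lay between 5.10 and 5.12 on all 4.

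CTNNB1 encodes β-catenin itself. Its probe set (201533_at) had a log2 signal of 9.60 in control cells in FCS, 9.58 in control cells in CSS, 9.79 in shRNA cells in FCS and 9.72 in shRNA cells in CSS. The 4 values lay close together. The shRNA difference was 1.14-fold in FCS (local spread 0.30 on the log2 scale) and 0.14 on the log2 scale in CSS (local spread 0.27), and the CSS difference was -0.03 with the values as deposited but 0.27 after scaling to a common median. The CTNNB1 transcript thus differed between shRNA and control arrays by less than the local spread in both sera under quantile normalization.

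LEF1 encodes lymphoid enhancer-binding factor, an HMG-box protein that brings β-catenin to DNA and whose own gene is a known target of the pathway. It held the largest difference between shRNA and control arrays among the members. LEF1 221558_s_at had a log2 signal of 7.45 in control cells in FCS, 7.33 in control cells in CSS, 8.97 in shRNA cells in FCS and 8.71 in shRNA cells in CSS. Both shRNA arrays lay above both control arrays. The difference was 1.52 on the log2 scale (2.86-fold, local spread 0.34) in FCS and 1.38 (2.60-fold, local spread 0.41) in CSS, and that in CSS was 0.97 with the values as deposited but 1.27 after scaling to a common median. In FCS it ranked 25 of the 12815 probe sets above the floor on both arrays, and in CSS 323 of 11618. With the shRNA-CSS array left out of the normalization the FCS difference was 1.47.

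Both pairs of arrays that compare shRNA with control, in FCS and in CSS, have no array in common. Of the 94 probe sets at least 2-fold higher in FCS, 29 (30.9%) were also at least 2-fold higher in CSS, and LEF1 221558_s_at was the only member probe set among them under quantile normalization. With the values as deposited it was just under 2-fold in CSS.

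Neither of the other 2 LEF1 probe sets rose with it in both sera, though 210948_s_at did in FCS. LEF1 210948_s_at had a log2 signal of 4.77 in control cells in FCS, 4.51 in control cells in CSS and 5.90 with the shRNA in FCS, and was at the floor with the shRNA in CSS. It was 2.19-fold higher with the shRNA in FCS (1.13 on the log2 scale, local spread 0.24), where it ranked 59 of 12815. In CSS the value at the floor gave only a bound of -0.19, which became 0.03 with the values as deposited but 0.33 after scaling to a common median, so its direction there was not settled. LEF1 221557_s_at had a log2 signal of 5.12 in control cells in FCS and 5.10 on each of the other 3 arrays. Its difference was -0.01 (local spread 0.20) in FCS and 0.00 (local spread 1.03) in CSS, where it was -0.06 with the values as deposited but 0.25 after scaling to a common median. It showed no rise where 221558_s_at, annotated to the same sequence record, was 2.86-fold higher.

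The range between the highest and the lowest LEF1 probe set was 1.53 on the log2 scale for the shRNA difference in FCS. Among the 1058 genes with at least 3 measured probe sets the median range was 0.24, and 99.8% of them had a smaller range than LEF1. In CSS the LEF1 range was 1.57 against a median of 0.84, and 84.8% of genes had a smaller one. Its low end there was the bound of 210948_s_at (-0.19), which changed sign under either other scaling. For 221558_s_at, 210948_s_at and 221557_s_at the CSS differences were 0.97, 0.03 and -0.06 as deposited. After scaling to a common median they were 1.27, 0.33 and 0.25. The LEF1 rise in FCS thus rested on 2 of 3 probe sets, and that in CSS on 1 of 3. Which LEF1 transcripts each probe set detects was not tested, since no probe sequences were used here.

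**Figure D2:**
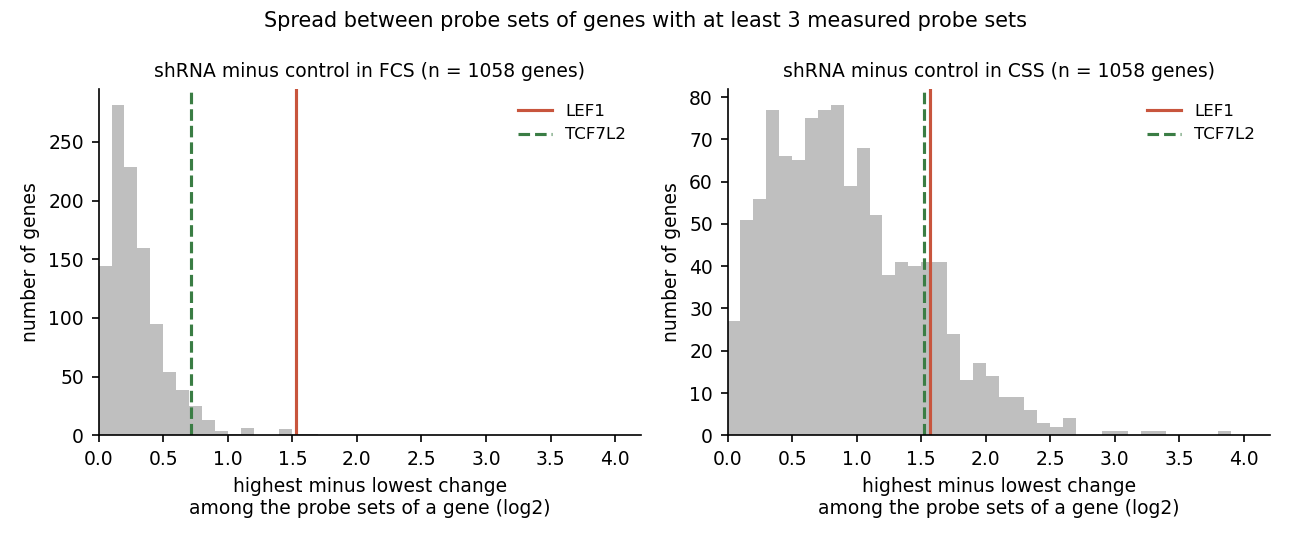
Histograms of the range (highest minus lowest, log2, horizontal axis) of the shRNA difference among the probe sets of a gene, for the 1058 genes with at least 3 measured probe sets (vertical axis, number of genes), in FCS (left) and CSS (right). Lines mark LEF1 (1.53 and 1.57) and TCF7L2 (0.71 and 1.53), of which LEF1 in FCS lies at the far right of all genes and both lie within the wider spread of the CSS pair. In CSS the lowest difference of both genes was a bound at the floor.

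LEF1 lies on chromosome 4 from 108047548 to 108168932. The 250 bases before the starts listed for LEF1 and DKK1, and before the one start listed for TCF7L2 that held a match, are shown because they are the DNA on which a TCF or LEF protein could act at a measured DNA-binding partner and at a feedback target. The sequences are those of RefSeq on build GRCh38.p14, written 5′ to 3′ on the gene's strand, with words of the TCF and LEF motif in capitals where they occur on either strand. The words searched were CTTTGAA, the same word ending in T (CTTTGAT), and both of these with T as the letter before the last, which gives CTTTGTA for the first and CTTTGTT for the other.
LEF1, chr4:108166302-108166551, minus strand: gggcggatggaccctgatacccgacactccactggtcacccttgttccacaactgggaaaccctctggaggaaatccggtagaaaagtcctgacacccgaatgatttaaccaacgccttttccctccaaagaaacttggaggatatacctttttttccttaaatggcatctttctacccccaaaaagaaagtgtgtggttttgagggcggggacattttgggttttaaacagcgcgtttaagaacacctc
TCF7L2, chr10:113126383-113126632, plus strand: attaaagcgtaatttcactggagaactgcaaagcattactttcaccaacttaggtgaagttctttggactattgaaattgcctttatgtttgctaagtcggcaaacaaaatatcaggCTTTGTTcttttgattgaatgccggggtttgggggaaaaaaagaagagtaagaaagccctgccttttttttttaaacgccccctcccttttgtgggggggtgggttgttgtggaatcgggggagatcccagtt
DKK1, chr10:52314031-52314280, plus strand: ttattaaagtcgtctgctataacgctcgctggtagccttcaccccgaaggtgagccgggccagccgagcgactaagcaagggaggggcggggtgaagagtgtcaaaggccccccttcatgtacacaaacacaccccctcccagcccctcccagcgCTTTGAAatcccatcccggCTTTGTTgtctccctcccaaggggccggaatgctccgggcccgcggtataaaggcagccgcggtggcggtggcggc

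The LEF1 window held none of these words, the TCF7L2 window held CTTTGTT from 133 to 127 bases before the start, and the DKK1 window held CTTTGAA from 95 to 89 and CTTTGTT from 76 to 70 bases before it. The table listed 11 starts for 7 of the 10 members, and 3 of the 11 windows held at least 1 word, the other one being a start of TCF7. Of all 35116 promoters in the table, 12.0% held at least 1 word in a window of the same length. The LEF1 and TCF7L2 windows shown lie inside the annotated span of their genes and not before its outermost start. A match in letters does not show that a protein binds there, and its absence says only that these letters are not in this window.

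TCF7L2, on chromosome 10, encodes TCF4, the main TCF protein of many epithelia. It had 6 measured probe sets, and all 6 were higher with the shRNA in FCS, by 0.09 to 0.80 on the log2 scale, none of them 2-fold. In CSS 2 of the 6 were higher and 4 lower, and these signs were kept under all 3 scalings. TCF7L2 212761_at had a log2 signal of 7.23 in control cells in FCS, 7.68 in control cells in CSS, 8.03 in shRNA cells in FCS and 7.45 in shRNA cells in CSS. Its shRNA difference was 0.80 in FCS (1.74-fold, local spread 0.36) and -0.24 in CSS (local spread 0.45). The shRNA array was thus above its control in FCS and below it in CSS, where the difference was within the local spread under quantile normalization but was -0.75 with the values as deposited.

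TCF7L2 216037_x_at had a log2 signal of 6.10 in control cells in FCS, 6.30 in control cells in CSS, 6.63 in shRNA cells in FCS and 6.97 in shRNA cells in CSS. With differences of 0.53 in FCS (local spread 0.31) and 0.67 in CSS (local spread 0.60), it was higher with the shRNA in both sera. TCF7L2 212759_s_at was also higher in both, at 5.04 and 5.13 in FCS and at 5.14 and 6.01 in CSS for control and shRNA, with a difference of 0.86 in CSS against a local spread of 0.96. The remaining 3 were higher in FCS and lower in CSS. TCF7L2 212762_s_at went from 4.73 to 5.46 in FCS (0.73, local spread 0.20) and from 4.99 to the floor in CSS (at least 1.59-fold lower). TCF7L2 216035_x_at went from 5.99 to 6.66 in FCS (0.67, local spread 0.31) and from 6.22 to 5.90 in CSS. TCF7L2 216511_s_at went from 6.08 to 6.53 in FCS (0.45, local spread 0.31) and from 6.11 to 5.96 in CSS. The 6 probe sets are of the same gene on the same arrays and are not independent of each other. In CSS the largest negative value, that of 212762_s_at, was a bound, and it is the low end of the CSS range. The range between the TCF7L2 probe sets was 0.71 in FCS, larger than in 94.9% of genes with at least 3 probe sets, and 1.53 in CSS, larger than in 83.2%.

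Neither feedback gene gave a measured level. The single probe set of DKK1, a secreted inhibitor of LRP5 and LRP6, had deposited log2 values of 3.71 to 4.11 and was under the filter on all 4 arrays. AXIN2, the scaffold of the destruction complex most often used as a readout of this pathway, and TNFRSF19 had no probe set annotated to them alone.

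CCND1 encodes cyclin D1, which drives entry into S phase. CCND1 208712_at had a log2 signal of 7.40 in control cells in FCS, 7.68 in control cells in CSS, 7.76 in shRNA cells in FCS and 8.10 in shRNA cells in CSS. CCND1 208711_s_at had 6.29, 6.40, 6.65 and 6.77 in the same order. In both, each shRNA array lay above its control. The shRNA differences were 0.36 for both probe sets in FCS (local spreads 0.35 and 0.30) and 0.42 and 0.37 in CSS (local spreads 0.41 and 0.62), but with the values as deposited they were -0.07 and -0.17 in CSS. The CCND1 probe sets differed from each other by 0.05 on the log2 scale in CSS, where the median range over 2989 genes with at least 2 measured probe sets was 0.60.

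MYC encodes the transcription factor c-Myc, a growth regulator. Its probe set (202431_s_at) had a log2 signal of 9.51 in control cells in FCS, 9.95 in control cells in CSS, 9.93 in shRNA cells in FCS and 10.03 in shRNA cells in CSS. The control in FCS was the lowest of the 4 and the other 3 spanned 0.09. MYC was higher with the shRNA by 0.43 in FCS (1.35-fold, local spread 0.29) and by 0.08 in CSS (local spread 0.25), where it was -0.09 with the values as deposited. It was higher in CSS than in FCS by 0.44 in control cells (1.36-fold, local spread 0.29).

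CD44, a hyaluronan receptor at the cell surface, had 8 annotated probe sets. All 8 were under the filter on all 4 arrays, with deposited log2 values of 3.42 to 4.03, so no level or difference of CD44 was measured.

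The main effect of the shRNA over both sera was also fitted with limma. The additive model of serum and shRNA has 1 residual degree of freedom, into which any interaction falls. Its moderated variances came from the trend on mean signal alone, so a probe set's own disagreement between the sera did not widen its SE. LEF1 210948_s_at, which departed from additivity by -1.32, had an SE of 0.34, and 221557_s_at, which departed by 0.014, had one of 0.41. On simulated data the fit made more false calls than its threshold allows. Of 13230 probe sets tested, 209 (1.58%) were called higher and 280 (2.12%) lower at a Benjamini-Hochberg adjusted p of 0.05. Of the 13 member probe sets 1 was called, LEF1 221558_s_at, with an effect of 1.45 (SE 0.18) and an adjusted p of 6.22e-13 in limma. Its adjusted p ranged from 2.63e-13 to 0.734 over the alternatives, at 0.0603 with the values as deposited and 0.734 without the variance trend. LEF1 210948_s_at had an effect of 0.47 (SE 0.34, adjusted p = 0.639 in limma) and 221557_s_at one of -0.01 (SE 0.41, adjusted p = 1.00). CTNNB1 had 0.16 (SE 0.11, adjusted p = 0.587 in limma), MYC 0.26 (SE 0.10, adjusted p = 0.186), the CCND1 probe sets 0.39 (SE 0.21, adjusted p = 0.449) and 0.36 (SE 0.39, adjusted p = 0.801). The 6 TCF7L2 effects lay between 0.03 and 0.60 with limma adjusted p from 0.584 to 0.992.

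For androgen ablation in control cells, CSS against FCS, the median over the members was 0.11, from 9 higher and 4 lower probe sets, against 6918 higher and 6612 lower of all probe sets. There 0 of 13 differed at least 2-fold, against 0.413% of all probe sets in either direction. LEF1 221558_s_at differed by -0.12 there (local spread 0.28), LEF1 210948_s_at by -0.26 (local spread 0.16) and TCF7L2 212761_at by 0.46 (local spread 0.29). In shRNA cells 2 of 13 were at least 2-fold lower in CSS, LEF1 210948_s_at (at least 2.99-fold) and TCF7L2 212762_s_at (at least 2.21-fold), both at the floor. Of all 14729 probe sets with a difference there, 1029 were at least 2-fold lower, and 14.0% differed by that much in either direction. LEF1 221558_s_at differed by -0.26 between CSS and FCS in shRNA cells (local spread 0.33). In the limma fit 340 probe sets (2.56%) were called for serum and 0 of the 13 member probe sets. An unadjusted p under 0.05 was found in limma for 2 of the 13, LEF1 210948_s_at and MYC, and for 1666 of all 13280 probe sets. For LEF1 221558_s_at the difference between sera was within the local spread under quantile normalization. In shRNA cells it was -0.64 with the values as deposited, or -0.36 after scaling to a common median, both larger in size than that spread. The spread was computed under quantile normalization, and the median of all probe sets in this pair was -0.17 as deposited and 0.08 with a common median. With both treatments against neither, LEF1 221558_s_at was 2.39-fold higher (1.26 on the log2 scale), and it departed from the sum of the separate differences by -0.14. With the values as deposited these were 0.85, under 2-fold, and -0.52.

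The rest of the pathway was described by 7 lists of 119 further genes, each gene by its brightest probe set. Of these genes 102 had a probe set annotated to them alone and 82 passed the filter. In FCS 73 had a difference, 48 higher and 25 lower with the shRNA, with a median of 0.07 against 0.00 over 7980 genes. In FCS 3 of 73, ROR1, SFRP1 and SOX4, reached 2-fold upwards and 0 reached it downwards, against 0.802% and 0.401% of all genes. The lists were chosen with earlier results of these data known, so their shares are not independent of the values. In CSS 77 had a difference, 45 higher and 32 lower, with a median of 0.14 against 0.01 over 8731 genes, and 11 reached 2-fold upwards and 6 downwards, against 7.75% and 6.75% of all genes. Over the lists limma called 3 of 71 genes higher and 1 lower, against 1.58% and 2.12% of all probe sets.

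Among 9 measured ligand and secretion genes, 0 were 2-fold changed in FCS and 2 were at least 2-fold higher in CSS. WNT6, a secreted ligand, differed by -0.10 in FCS and 1.78 in CSS (local spread 1.04), with control values near the floor (4.55 and 4.35). WNT10B, another, differed by 0.02 and 1.03 (local spread 0.95 in CSS), where the deposited values gave 0.71 for WNT10B in CSS. Among 12 receptors, ROR1, a tyrosine kinase-like receptor for Wnt5a, had a log2 signal of 6.13 in control cells in FCS, 6.25 in control cells in CSS, 7.58 in shRNA cells in FCS and 7.40 in shRNA cells in CSS. Both shRNA arrays lay above both control arrays, as for LEF1 221558_s_at. The ROR1 differences were 1.45 in FCS and 1.14 in CSS, and its limma effect was 1.30 with a Benjamini-Hochberg adjusted p of 0.00394, which was 0.529 with the values as deposited and 0.734 without the variance trend, the highest over the alternatives. Its other probe set was 0.67 higher in FCS but at the floor on both CSS arrays, where it gave no fold. The ROR1 rise in CSS thus rested on a single probe set. Of the other receptors, FZD9 (at least 2.41-fold higher) and LRP6 (1.11, local spread 1.00) were at least 2-fold higher in CSS, the latter by 0.84 with the values as deposited. FZD5 was lower by -1.14 in its brighter probe set and higher by 0.71 in its other one.

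Of 6 surface inhibitors measured, SFRP1, a secreted Wnt-binding protein, differed by 1.01 in FCS and -0.07 in CSS in its brighter probe set, but by 0.19 and 0.18 in its other one. RNF43, a ubiquitin ligase that removes Frizzled receptors and is itself a known target of the pathway, differed by 0.42 in FCS and 1.82 in CSS, with a limma adjusted p of 0.0575. Its control values were near the floor (4.41 and 4.43), and its local spread in CSS was 1.01. In the list of 15 destruction complex and dishevelled genes, 0 were 2-fold changed in FCS. In CSS, GSK3B, the kinase that marks β-catenin for β-TrCP, differed by -1.04 and TNKS2, a tankyrase that destabilizes Axin, by -1.08, while APC2 (1.20, but -0.07 in its other probe set) and the casein kinase gene CSNK1E (1.29, and 0.79 as deposited) were higher. In FCS these genes differed by -0.50, -0.13, at least 0.10 and -0.05.

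Of 16 nuclear cofactors and corepressors 0 were 2-fold changed in either serum. CTBP1, a corepressor, was the 1 gene limma called lower, with -0.20 in FCS and -0.55 in CSS (adjusted p = 0.0368). Among 21 further known β-catenin and TCF targets, SOX4, an HMG-box transcription factor, had a log2 signal of 9.05 in control cells in FCS, 9.59 in control cells in CSS, 10.12 in shRNA cells in FCS and 10.16 in shRNA cells in CSS. Both shRNA arrays lay above both control arrays, and all 5 SOX4 probe sets were higher with the shRNA, by 0.84 to 1.44 in FCS and by 0.57 to 0.96 in CSS. The SOX4 effect in limma was 0.82 with an adjusted p of 5.10e-12, which was 0.734 without the variance trend. BIRC5, which encodes the mitotic protein survivin, differed by 0.70 in FCS and 0.64 in CSS and was the other target called (adjusted p = 5.28e-06 in limma). CTBP1 and BIRC5 were named after their values were seen, and neither was called without the variance trend. ID2 (-1.10, but -0.22 in its other probe set), an inhibitor of helix-loop-helix factors, was lower in CSS, and TIAM1 (1.28), a Rac exchange factor, and BMP4 (at least 2.12-fold) were higher, but in FCS ID2 and TIAM1 differed by -0.13 and -0.07 and BMP4 was at the floor on both arrays. The TIAM1 control values were near the floor (4.46 and 4.52). None of the 3 cadherin partners measured was 2-fold changed in either serum.

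The 5 genes whose brightest probe set followed LEF1 221558_s_at most closely, by Euclidean distance over the 4 centred log2 values among 7948 candidates, were GAD1 (0.18), ROR1 (0.24), CEMIP2 (0.32), GGH (0.37) and SFN (0.40). GAD1 encodes a glutamate decarboxylase, GGH a γ-glutamyl hydrolase, CEMIP2 a hyaluronidase of the cell surface and SFN the 14-3-3σ protein. Their shRNA differences were 1.48, 1.45, 1.84, 1.12 and 1.81 in FCS and 1.14, 1.14, 1.69, 1.20 and 1.03 in CSS, those of GAD1 being lower bounds since it was at the floor on both control arrays, so that its distance and rank rest on values at the floor. The measure uses 4 arrays and is a description of these arrays alone.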

How the data were processed

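RNA of 4 LAPC4 cultures was measured on 1 array each, and nothing in the labels marks a replicate. The deposited values are log2 signals. In their methods the authors give MAS5 as the source of the signals, filter on intensity (20) and present calls, and then normalize by quantiles, but the deposited columns do not share a distribution, so filter and normalization were applied here, without present calls. Of 22277 probe sets 62 controls were left out, and 15643 that reached a signal of 20 on some array were kept. Their log2 values were quantile normalized, and signals under 20 were raised to 20. Probe sets were named from the platform annotation, symbols updated through a RefSeq gene table, giving 1 gene for 19064 probe sets. Those naming several (1043) were left out. The members and gene lists were chosen with earlier results of these data known. The genes named are all members, the shRNA targets, up to 4 genes per list with at least a 2-fold difference in either serum and the largest main effect in size, and the 5 genes nearest to LEF1. The local spread is 1.48 times the median absolute deviation over 1000 probe sets. Main effects were tested with limma 3.58.1 in R 4.3.3, with Benjamini-Hochberg adjustment over all probe sets at 0.05. Each step was tested on simulated data. Python 3.11.15 ran the remaining work, with pandas 2.3.3 and numpy 2.4.6. Alternatives were the deposited values, a common median, a floor of 100 or none, a filter at 100 or none, normalization without the shRNA-CSS array, folds of 1.5 and 3, the brightest probe set alone, and limma without the variance trend.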

Additional observations from a re-analysis of the deposited data

Results flagged for a closer look

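A group of 6 member probe sets stood out because their shRNA difference had opposite signs in FCS and CSS. The difference between the sera was not tested, since each condition has 1 array. The shRNA difference in CSS minus that in FCS was -1.32 for LEF1 210948_s_at and -1.40 for TCF7L2 212762_s_at, both at the floor with the shRNA in CSS. It was -1.04 for TCF7L2 212761_at, -0.99 for TCF7L2 216035_x_at and -0.60 for TCF7L2 216511_s_at, and 0.014 for LEF1 221557_s_at, whose differences were near 0 in both sera. The 4 TCF7L2 signs were kept under either other scaling, while those of LEF1 210948_s_at and 221557_s_at in CSS were not. All of them share the shRNA-CSS array, whose values had the smaller interquartile range of 2.07, and the part of that array in these values was not tested.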

How the results depend on the processing

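Of 118 values under an alternative, 94 stayed within the limits set for them, 19 moved and 5 lost their call. The LEF1 221558_s_at difference in CSS was 0.97 with the values as deposited. Its main effect lost the call with the deposited values (1.23, adjusted p = 0.0603 in limma) and without the variance trend (1.45, adjusted p = 0.734), and under both 0 member probe sets were called for the shRNA. In limma the probe sets called for the shRNA went from 489 to 95 with the deposited values, 228 with a common median, 311 with a floor of 100 and 0 without the trend, where 611 had an unadjusted p under 0.05. Those called for serum went from 340 to 52 with the deposited values, 122 with a common median and 0 without the trend, where 497 had an unadjusted p under 0.05. The member probe sets at least 2-fold higher with the shRNA in FCS went from 2 to 1 with a floor of 100, with a signal of at least 100 and with the brightest probe set alone. At 1.5-fold they were 5 in FCS and 3 in CSS, and at 3-fold 0 in both. The shares of all probe sets at these folds were not computed, so these counts cannot be read as a result about the members. In CSS the member probe sets at least 2-fold higher with the shRNA were 0 with the values as deposited. The cause was not tested. No paired analysis was possible because the labels give no replicate numbers and each condition has 1 array, and leaving out an array leaves the additive model no residual degree of freedom. Values near the floor of 20 limit what can be said of the dim LEF1 and TCF7L2 probe sets.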
